A study of Rattus norvegicus with 18 samples.

Results

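The 7 genes described here sense sterol, act on that signal or move sterol. They are Srebf1 and Srebf2, which encode the sterol regulatory element-binding proteins (SREBPs), Scap, Insig1 and Insig2, which control the release of those proteins, Stard4, a carrier, and Abca1, an exporter. Each was found by its symbol in the annotation of the array and read from its brightest probe set, a probe set being a group of short probes against 1 transcript. They make up 7 of the 9149 genes tested. Of 31099 probe sets on the arrays, 16 carried the symbol of one of these genes alone, and 11 of the 16 exceeded log2 4, taken here as the background level, on at least 3 of the 18 arrays. All 7 genes passed that filter, and 4 of them (Srebf1, Insig2, Stard4 and Abca1) passed with a second probe set, which served as a check.

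The cells were NRK-52E, an established line of rat kidney epithelium labelled as proximal tubule and as Osborne-Mendel in genotype. Confluent cultures were given 1.1 µM chlorothalonil, a chlorine-bearing aromatic fungicide, with 0.1% DMSO as its solvent, and the labels call this the dose of 10% inhibition at 72 h. The groups were chlorothalonil for 6 h, 24 h and 72 h and, as their controls, DMSO alone at 0.1% for the same times, with 3 arrays per group. Every group grew in medium with 10% fetal calf serum, which brings lipoprotein sterol, and the labels name the arrays of a group biological replicates, with no word on how far the cultures were apart, so p-values measure the spread between these arrays.

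Replicate arrays correlated at 0.992 to 0.998. Against the labelled tubule identity, 8 of 10 proximal tubule markers stayed at or below log2 4 on all 18 arrays, among them Lrp2, Cubn and Slc34a1, while Ggt1, a brush border enzyme, exceeded it on 15. Krt8, Tjp1 and Ocln among 9 epithelial markers, and Vim, Acta2, Col3a1 and Col1a1 among 9 mesenchymal markers, exceeded log2 4 on every array. The other 6 epithelial markers (Cldn1, Cdh1, Epcam, Krt18, Krt19 and Cdh16) never exceeded it, and neither did 3 mesenchymal ones (Lum, Dcn and Pdgfra). Of 5 podocyte and distal nephron markers measured, 5 never exceeded it. The spiked poly-A control transcripts, added to the RNA in fixed amounts in the standard protocol, averaged log2 10.6 to 11.4 on the chlorothalonil arrays and 9.17 to 10.5 on the DMSO arrays, where the lowest was DMSO replicate 1 at 24 h. Scaled to these controls, the median change of all genes moved by −0.60 at 6 h, −1.06 at 24 h and −0.65 at 72 h, and the part of this shift in the results below was not tested beyond the values given with them.

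SREBPs are made as inactive precursors in the membrane of the endoplasmic reticulum. When sterol is scarce, SCAP escorts them to the Golgi, where they are cut, and the freed part enters the nucleus and turns on genes of cholesterol and fatty acid synthesis and of lipoprotein uptake. When sterol is plentiful, INSIG proteins hold SCAP back, and oxysterols activate the LXR receptors, which raise sterol export. Srebf2, Insig1 and Stard4 are themselves SREBP target genes, and Abca1 is a textbook LXR target.

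Promoter sequences were at hand for 6 of the 7 genes in RefSeq's table for assembly GRCr8, as windows of 300 bases from 250 before to 50 after the start. Srebf1 has 2 windows there, and Stard4 is not among them. The 4 below are those of Srebf2, Insig1, Abca1 and, for Srebf1, the start nearer the gene's end. Windows not shown hold some of the same letters. Capitals mark the sterol regulatory element core TCACNCCA, the NF-Y box CCAAT, the E-box CACGTG and the LXR direct repeat, written as GGTTA and GGTCA with any 5 bases between them, each searched on both strands, so a box on the far strand appears as its reverse complement.
Srebf2, chr7:115543057-115543356, plus strand: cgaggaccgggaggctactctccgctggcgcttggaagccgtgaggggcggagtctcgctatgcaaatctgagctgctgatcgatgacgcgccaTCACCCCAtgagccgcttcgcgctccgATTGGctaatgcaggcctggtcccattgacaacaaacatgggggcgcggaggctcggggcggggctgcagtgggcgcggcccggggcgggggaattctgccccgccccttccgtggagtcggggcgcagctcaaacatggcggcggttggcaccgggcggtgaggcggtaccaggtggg
Insig1, chr4:8057720-8058019, minus strand: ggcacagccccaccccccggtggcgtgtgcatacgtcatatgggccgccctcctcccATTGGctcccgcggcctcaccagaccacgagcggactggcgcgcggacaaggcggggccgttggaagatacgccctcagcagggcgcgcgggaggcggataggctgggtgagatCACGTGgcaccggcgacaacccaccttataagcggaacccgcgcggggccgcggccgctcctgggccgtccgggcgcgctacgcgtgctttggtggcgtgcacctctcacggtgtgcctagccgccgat
Abca1, chr5:72596424-72596723, minus strand: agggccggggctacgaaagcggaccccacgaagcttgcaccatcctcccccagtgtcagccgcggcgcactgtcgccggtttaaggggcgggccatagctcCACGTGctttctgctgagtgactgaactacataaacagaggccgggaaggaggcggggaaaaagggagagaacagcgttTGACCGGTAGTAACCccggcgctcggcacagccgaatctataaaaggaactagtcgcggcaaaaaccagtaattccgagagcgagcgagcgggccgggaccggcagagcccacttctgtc
Srebf1, downstream start, chr10:45518961-45519260, minus strand: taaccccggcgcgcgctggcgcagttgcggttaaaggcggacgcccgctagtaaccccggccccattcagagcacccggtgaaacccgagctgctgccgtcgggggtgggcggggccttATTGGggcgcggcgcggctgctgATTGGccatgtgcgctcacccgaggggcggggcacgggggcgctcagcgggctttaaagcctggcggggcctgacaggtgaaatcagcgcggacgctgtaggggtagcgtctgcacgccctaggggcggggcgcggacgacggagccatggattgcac

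The Srebf2 window held the only sterol regulatory element core among the 7 promoters of these genes, at −156 to −149 from the start, and an NF-Y box at −129 to −125. Insig1 had an E-box at −79 to −74 and an NF-Y box at −193 to −189. Abca1 had the LXR repeat at −70 to −56, on the far strand, and an E-box at −149 to −144. The downstream Srebf1 start had NF-Y boxes at −131 to −127 and −108 to −104. Among the windows not shown, Scap had an E-box at −50 to −45. Insig2 had an NF-Y box at −61 to −57 and the upstream Srebf1 start one at −169 to −165. The E-box was thus in 3 of the 7 windows and the NF-Y box in 5. Among all 33469 rat promoters of that length, 3.89% held the core, 37.5% the NF-Y box, 6.42% the E-box and 0.0538% the repeat. The GC box GGGCGG, searched on both strands and left in lower case, was in 6 of the 7 windows and in 33.1% of all promoters. The repeat's letters are those of the known human ABCA1 element, so its match in rat Abca1 is not independent of the pattern searched. Such a match describes the letters and no binding. Only these exact patterns were searched, so a missing match does not show that a window lacks other forms of an element.

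Under chlorothalonil 6 of the 7 genes were lower at 24 h, and the directions split at 72 h. At 6 h, 4 of the 7 genes fell (Scap, Insig1, Insig2 and Stard4) and 0 rose, while 27.8% of all genes tested were called higher, 31.8% lower and 59.6% in either direction. At 24 h, 6 of 7 fell (Srebf2, Scap, Insig1, Insig2, Stard4 and Abca1) and 0 rose, where 39.1% of all genes were called higher, 31.1% lower and 70.1% in either direction. At 72 h, Insig1 and Abca1 rose and Srebf2 and Scap fell, where 37.2% of all genes were called higher, 27.0% lower and 64.3% in either direction. The median log2 change over the 7 genes was −0.28, −0.73 and −0.05 at 6, 24 and 72 h, beside −0.01, 0.06 and 0.07 over all genes tested. The treated and DMSO arrays did not overlap for 4 of 7 genes at 6 h (66.7% of all genes), 5 of 7 at 24 h (73.0%) and 5 of 7 at 72 h (70.5%). On the poly-A scale the calls were 0 higher and 4 lower, 0 higher and 7 lower, and 0 higher and 3 lower, where 36.7%, 67.1% and 35.5% of all genes were lower. Without DMSO replicate 1 at 24 h they were 6, 7 and 5 lower and 0 higher, where 61.8%, 52.1% and 57.8% of all genes were lower. Called means an adjusted p under 0.05 in the fit over all genes with limma. Transcript shares in whole cultures do not tell fewer cells of a kind from less RNA per cell.

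**Figure D1:**
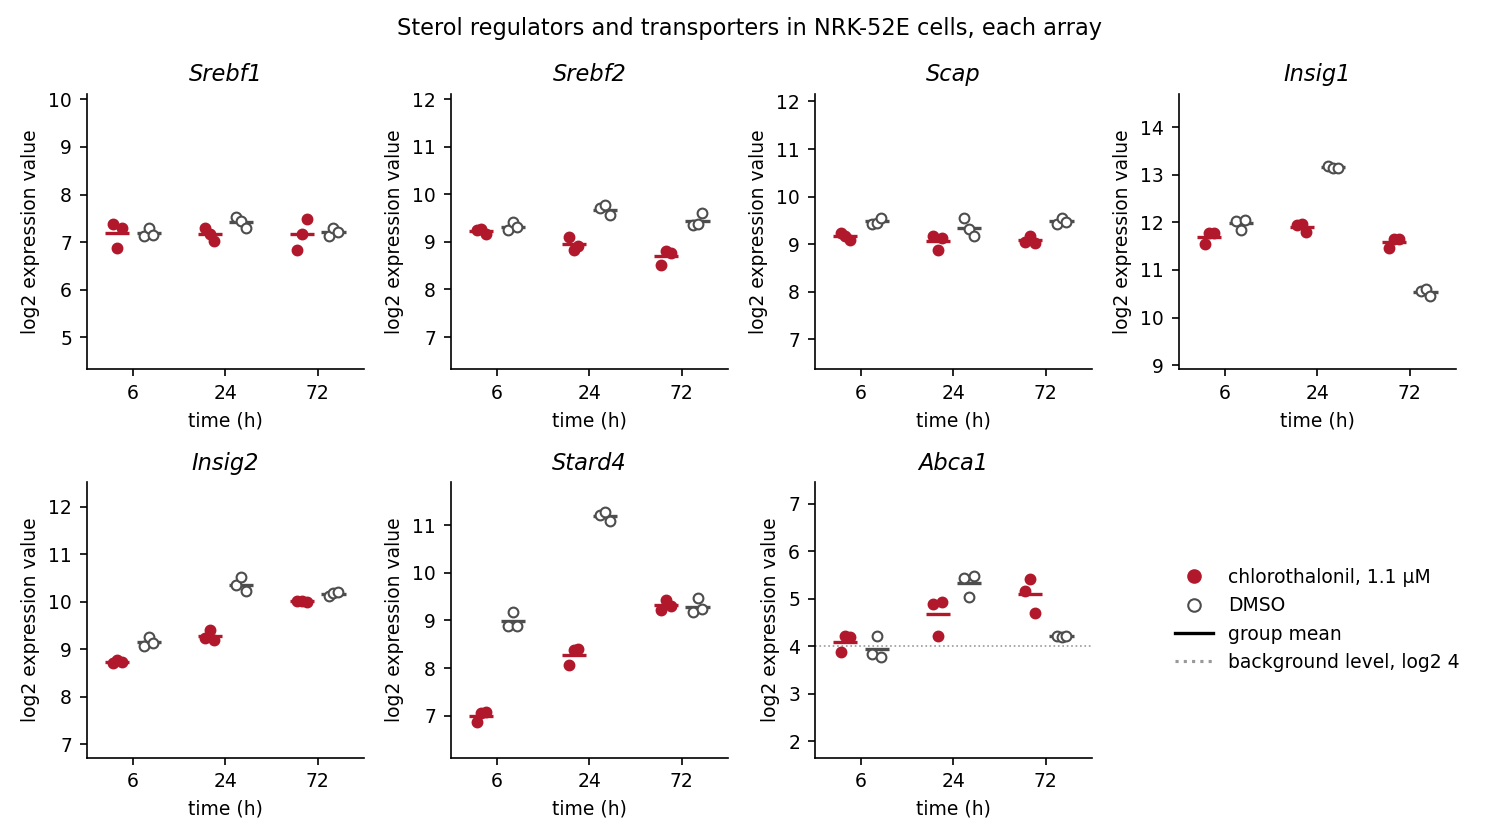
Log2 expression value (vertical axis) of each of the 7 genes on each of the 18 arrays against time in hours, with chlorothalonil at 1.1 µM as filled points left of DMSO as open points and bars for group means. The dotted line at log2 4 falls within the axis range for Abca1 alone. The gaps are widest for Stard4 at 6 and 24 h, where its treated arrays lie between 6.87 and 8.41 and its DMSO arrays between 8.88 and 11.28.

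Srebf1, whose products favour fatty acid genes, showed no called change. At 6 h its log2 values were 7.38, 6.87 and 7.31 in chlorothalonil, against 7.13, 7.30 and 7.15 in DMSO. At 24 h they were 7.30, 7.17 and 7.01 in chlorothalonil, against 7.54, 7.45 and 7.29 in DMSO. At 72 h they were 6.84, 7.16 and 7.48 in chlorothalonil, against 7.14, 7.30 and 7.21 in DMSO. The groups overlapped at all 3 times, and the treated arrays spread more widely than the DMSO arrays at 6 and 72 h. The changes were −0.01, −0.26 and −0.05 with a standard error of 0.150, and the smallest adjusted p was 0.129, at 24 h, where the 95% interval was −0.59 to 0.06. A second Srebf1 probe set near the background had changes of 0.18, 0.09 and −0.39, the last with an adjusted p of 0.0526. Scaled to the poly-A controls, Srebf1 was called lower at 24 h (−1.32, adjusted p = 0.000198), beside the shift of −1.06 for the median gene.

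Srebf2, whose product favours cholesterol genes, was lower from 24 h on. In the 6 h cultures its values were 9.25, 9.26 and 9.17 in chlorothalonil, against 9.24, 9.41 and 9.31 in DMSO, which overlap. In the 24 h cultures they were 9.11, 8.82 and 8.90 in chlorothalonil, against 9.70, 9.77 and 9.57 in DMSO. In the 72 h cultures they were 8.52, 8.81 and 8.77 in chlorothalonil, against 9.36, 9.38 and 9.60 in DMSO. From 24 h every treated array lay below every DMSO array. Srebf2 had a change of −0.09 at 6 h (adjusted p = 0.425) and fell 1.66-fold at 24 h (−0.73, SE 0.0959, adjusted p = 6.16e-06) and 1.68-fold at 72 h (−0.74, adjusted p = 7.42e-06). In DMSO alone it rose by 0.36 at 24 h against 6 h (adjusted p = 0.00347), a call lost under median centring (0.19, adjusted p = 0.104) and on the poly-A scale with DMSO replicate 1 at 24 h (0.54, adjusted p = 0.215) or without it (0.11, adjusted p = 0.704). The treated means were 9.23 at 6 h and 8.95 at 24 h. The order of mean levels was DMSO at 24, 72 and 6 h and chlorothalonil at 6 h, neighbours that overlap, and then chlorothalonil at 24 h and at 72 h, each apart. Its other probe set stayed at or below log2 4 on all 18 arrays.

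Scap, the escort of the SREBPs, was lower at each time by a similar, small amount. At 6 h its values were 9.22, 9.18 and 9.10 in chlorothalonil, against 9.43, 9.45 and 9.56 in DMSO. At 24 h they were 9.17, 8.87 and 9.12 in chlorothalonil, against 9.55, 9.31 and 9.16 in DMSO. At 72 h they were 9.04, 9.17 and 9.03 in chlorothalonil, against 9.43, 9.54 and 9.47 in DMSO. The groups were apart at 6 and 72 h and met at 24 h, where 1 DMSO array lay below 1 treated array. The changes were −0.31, −0.28 and −0.40 (SE 0.0940, adjusted p = 0.00971, 0.0138 and 0.00181), so Scap stood 1.24, 1.22 and 1.32 times lower. The 24 h call was lost without treated replicate 2 (−0.19, adjusted p = 0.0841), without DMSO replicate 1 at 24 h (−0.18, adjusted p = 0.0870) and in a fit of the 24 h arrays alone (adjusted p = 0.0843). A second Scap probe set exceeded log2 4 on 2 arrays, both treated for 24 h.

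Insig1, the retention protein that is itself an SREBP target, was lower under treatment at 6 and 24 h and higher at 72 h. After 6 h its values were 11.54, 11.78 and 11.77 in chlorothalonil, against 12.04, 11.84 and 12.06 in DMSO. After 24 h they were 11.94, 11.96 and 11.80 in chlorothalonil, against 13.19, 13.15 and 13.14 in DMSO. After 72 h they were 11.47, 11.66 and 11.65 in chlorothalonil, against 10.56, 10.61 and 10.44 in DMSO. The treated means stayed within 0.31 log2 units over the 3 times, while the DMSO means spanned 2.62, so that the treated arrays lay below DMSO at 6 and 24 h and above it at 72 h with no overlap at any time. Insig1 fell by 0.28 at 6 h (SE 0.0836, adjusted p = 0.00937) and 2.39-fold at 24 h (−1.26, adjusted p = 3.99e-09), and it rose 2.08-fold at 72 h (1.06, adjusted p = 4.87e-08). The 6 h call was lost without treated replicate 1 (−0.20, adjusted p = 0.0568), and scaling to the poly-A controls ended the one at 72 h (0.40, adjusted p by limma of 0.322). In order of mean level, DMSO at 24 h came first and apart, then DMSO at 6 h and chlorothalonil at 24 h, which overlapped, then chlorothalonil at 6 h and at 72 h, which overlapped each other, and DMSO at 72 h last and apart.

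Insig2, the other retention protein, is known not to depend on SREBPs in the way Insig1 does. At 6 h its values were 8.72, 8.77 and 8.73 in chlorothalonil, against 9.07, 9.26 and 9.13 in DMSO. At 24 h they were 9.23, 9.39 and 9.20 in chlorothalonil, against 10.34, 10.51 and 10.23 in DMSO. At 72 h they were 10.01, 10.02 and 9.99 in chlorothalonil, against 10.13, 10.18 and 10.20 in DMSO. All treated arrays lay below all DMSO arrays at each time, by little at 72 h. Insig2 fell 1.33-fold at 6 h (−0.41, SE 0.0739, adjusted p = 0.000203) and 2.12-fold at 24 h (−1.09, adjusted p = 5.18e-09), and at 72 h it had a change of −0.16 (adjusted p = 0.0680). That 72 h value crossed the threshold when only the 72 h arrays entered the fit (adjusted p = 0.0372), with array weights (0.0165) and with the replicate number as a block (0.0380). The treated means climbed at each step, at 8.74, 9.28 and 10.01, while the DMSO means were 9.15, 10.36 and 10.17. In order of level, DMSO at 24 h, DMSO at 72 h and chlorothalonil at 72 h came first without overlap, then chlorothalonil at 24 h and DMSO at 6 h, which overlapped, and chlorothalonil at 6 h last.

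The second Insig2 probe set had the same direction at 6 and 24 h and the opposite one at 72 h. Its mean log2 values were 8.77 in chlorothalonil and 9.65 in DMSO at 6 h, 9.97 in chlorothalonil and 10.33 in DMSO at 24 h, and 9.32 in chlorothalonil and 8.81 in DMSO at 72 h. It fell by 0.88 and 0.36 and then rose by 0.52 (SE 0.111, adjusted p = 1.04e-05, 0.0108 and 0.000998). No single direction can therefore be given for Insig2 at 72 h.

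Stard4, a soluble carrier that moves cholesterol between membranes, had the largest changes of the 7 genes at 6 and 24 h. Its values at 6 h were 6.87, 7.05 and 7.07 in chlorothalonil, against 8.89, 9.18 and 8.88 in DMSO. Those at 24 h were 8.06, 8.38 and 8.41 in chlorothalonil, against 11.22, 11.28 and 11.10 in DMSO. Those at 72 h were 9.21, 9.44 and 9.30 in chlorothalonil, against 9.17, 9.47 and 9.24 in DMSO. The groups stood far apart at the first 2 times and overlapped at 72 h. Stard4 fell 3.96-fold at 6 h (−1.99, SE 0.115, adjusted p = 3.13e-09) and 7.54-fold at 24 h (−2.92, adjusted p = 1.97e-11), and at 72 h the change was 0.03 with a 95% interval of −0.22 to 0.27 (adjusted p = 0.864). The order of mean levels ran from DMSO at 24 h, clearly highest, through chlorothalonil and DMSO at 72 h and DMSO at 6 h, which lie close together, to chlorothalonil at 24 h and then at 6 h, each apart from its neighbour. On the poly-A scale without DMSO replicate 1 at 24 h, a setting added after seeing the data, the 72 h value was −0.63 (adjusted p = 0.0129), beside the shift of −0.65 for the median gene.

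A second Stard4 probe set showed a sign change at 72 h. At 6 h it read 8.05, 7.98 and 7.97 in chlorothalonil, against 9.53, 9.58 and 9.40 in DMSO. At 24 h it read 8.57, 8.49 and 8.39 in chlorothalonil, against 10.04, 10.24 and 9.98 in DMSO. At 72 h it read 8.15, 8.26 and 8.37 in chlorothalonil, against 6.53, 6.69 and 6.55 in DMSO. Like Insig1, it kept its treated means within 0.49 log2 units while its DMSO means spanned 3.50. It fell 2.83-fold and 3.03-fold at 6 and 24 h and rose 3.18-fold at 72 h (1.67, SE 0.0834, adjusted p = 6.94e-10). The fall of Stard4 at 6 and 24 h thus held in both probe sets, and its level at 72 h depended on which was read. The brightest one is of a type, marked _a, that is designed to hit several transcripts of 1 gene, and a further probe set stayed at or below log2 4 on all 18 arrays.

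**Figure D2:**
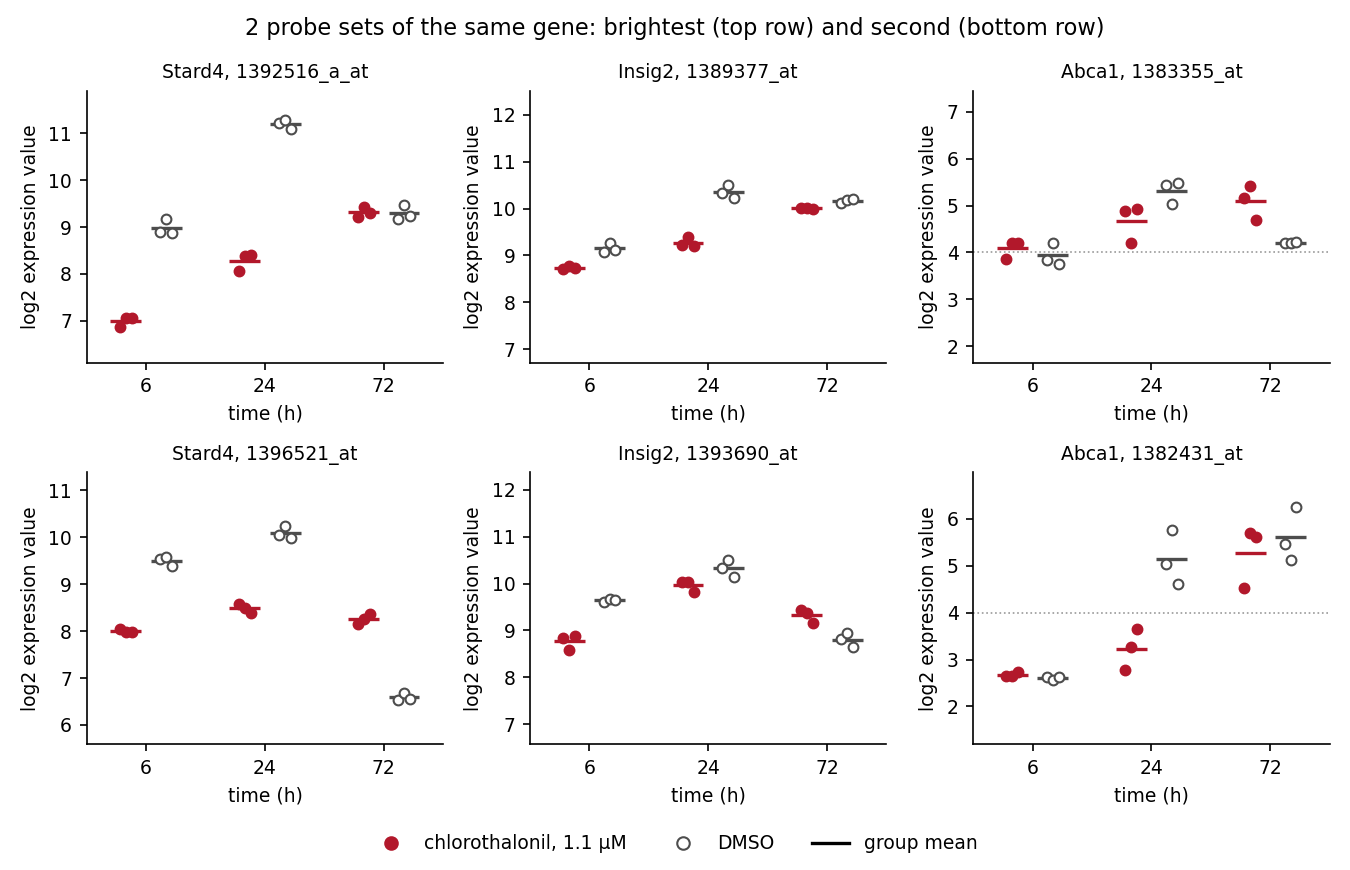
Log2 expression value (vertical axis) on each array against time in hours for Stard4, Insig2 and Abca1, with the brightest probe set in the top row and the second in the bottom row, filled points for chlorothalonil, open points for DMSO and bars for group means. The dotted line at log2 4 falls within the axis range for Abca1 alone. At 72 h the second Stard4 probe set has DMSO arrays at 6.53 to 6.69 under treated arrays at 8.15 to 8.37, whereas the brightest one overlaps.

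Abca1, which loads cell cholesterol onto apolipoprotein acceptors, lay close to background. After 6 h its values were 3.87, 4.21 and 4.19 in chlorothalonil, against 3.84, 4.21 and 3.76 in DMSO. After 24 h they were 4.88, 4.21 and 4.93 in chlorothalonil, against 5.44, 5.04 and 5.48 in DMSO. After 72 h they were 5.15, 5.41 and 4.70 in chlorothalonil, against 4.21, 4.20 and 4.22 in DMSO. The arrays mixed at 6 h, the treated ones were lower at 24 h and higher at 72 h, and treated replicate 2 was the lowest of its group at 24 h. Abca1 had a change of 0.16 at 6 h (SE 0.204, adjusted p = 0.535), fell 1.56-fold at 24 h (−0.65, adjusted p = 0.0107) and rose 1.84-fold at 72 h (0.88, adjusted p = 0.00153). The 24 h call was lost without treated replicate 2 (−0.41, adjusted p = 0.0696), and scaling to the poly-A controls ended the one at 72 h (0.23, adjusted p = 0.594).

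The second Abca1 probe set read 2.78, 3.26 and 3.65 in chlorothalonil at 24 h, against 5.04, 5.76 and 4.61 in DMSO. The treated level there is known only as at or below log2 4, so the reading of this probe set was at least 2.20-fold lower. Its adjusted p by limma of 0.000201 belongs to the difference of the deposited values and not to this bound. At 72 h it averaged 5.28 ± 0.650 in chlorothalonil and 5.62 ± 0.583 in DMSO (SD, n = 3 each), with overlap and a change of −0.34 (adjusted p = 0.420). The fall of Abca1 at 24 h was thus seen in both probe sets and the rise at 72 h in one. In order of level, the brightest Abca1 probe set was highest in DMSO at 24 h, then in chlorothalonil at 72 h and at 24 h, and the remaining groups lay near log2 4, with overlap between neighbours throughout. Its other 2 probe sets exceeded log2 4 on 1 array each.

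**Figure D3:**
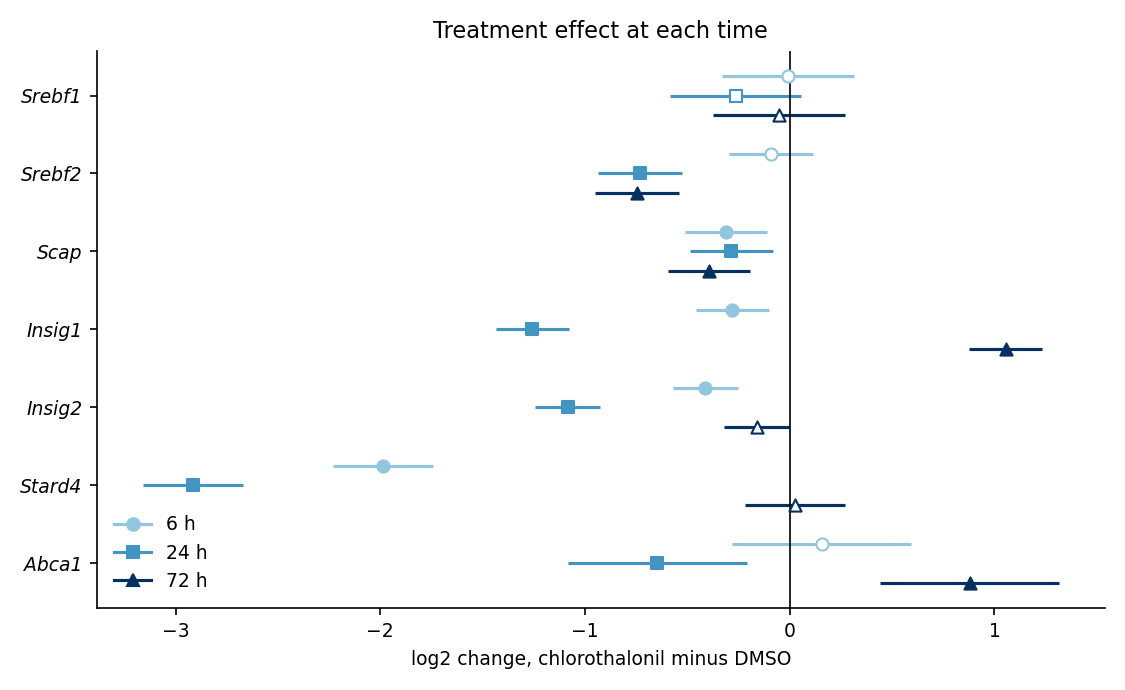
Log2 change, chlorothalonil minus DMSO (horizontal axis), of the 7 genes at 6 h (circle), 24 h (square) and 72 h (triangle), with 95% intervals as bars and filled symbols where the adjusted p was under 0.05. The squares of 6 genes lie left of 0 and filled, and only Insig1 and Abca1 have filled triangles to its right.

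Whether the effect differed between times was tested as an interaction. From 6 to 24 h the effect moved down in 5 of 7 genes (Srebf2, Insig1, Insig2, Stard4 and Abca1), where 39.6% of all genes moved up, 23.4% down and 63.0% either way. From 24 to 72 h it moved up in 4 of 7 (Insig1, Insig2, Stard4 and Abca1), where 27.9% of all genes moved up, 29.8% down and 57.6% either way. Stard4 moved by −0.93 from 6 to 24 h (adjusted p = 0.000155) and by 2.94 from 24 to 72 h (adjusted p = 2.48e-09), the largest step among the 7 genes in that interval, while Insig1 moved by −0.98 and 2.31. Srebf2 moved by −0.64 and then by −0.01, so its lower level at 24 h was still there at 72 h. Scap moved by 0.03 and −0.11, and Srebf1 by −0.26 and 0.21, none of them called. The second Stard4 probe set moved by −0.10 in the first interval (adjusted p = 0.503) and by 3.27 in the next, and the second Insig2 probe set by 0.52 and 0.87.

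The DMSO cultures themselves changed with time. At 24 h against 6 h, 5 of 7 genes were higher in DMSO (Srebf2, Insig1, Insig2, Stard4 and Abca1) and 0 lower, where 32.9% of all genes were higher, 40.0% lower and 72.9% changed. At 72 h against 24 h the same 5 genes were lower and 0 higher, where 36.3% of all genes were higher, 24.3% lower and 60.7% changed. Stard4 rose 4.65-fold (2.22, SE 0.115) and then fell 3.75-fold (−1.91). Insig1 rose 2.27-fold (1.18) and then fell 6.15-fold (−2.62, adjusted p = 3.10e-12). Insig2 rose 2.31-fold and then fell by 0.19 (adjusted p = 0.0347), a call lost with scaling to the poly-A controls (adjusted p = 0.502), in a fit of both groups alone (0.0941) and without any 1 of DMSO replicates 1 and 2 at 24 h and 1, 2 and 3 at 72 h (up to 0.180). Abca1 averaged 3.94 in DMSO at 6 h, over log2 4 on 1 of 3 arrays, 5.32 at 24 h and 4.21 at 72 h. Its second probe set went up by 0.48 from 24 to 72 h (adjusted p = 0.246). The later fall of Srebf2 was slight, −0.23 with an adjusted p of 0.0473, and was lost in most other fits. These comparisons share the DMSO arrays at 24 h with the treatment comparison at that time, so the values stand side by side and are not independent.

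Genes around the 7 in the pathway were counted from lists, which can be read against the shares of all genes called above. The changes of the named genes had standard errors of 0.0546 to 0.173. Of 12 tested genes that activate SREBPs or serve sterol-driven degradation, 4 rose and 3 fell at 6 h, 6 rose and 4 fell at 24 h, and 7 rose and 4 fell at 72 h. Their medians of 0.02, 0.14 and 0.28 turned below 0 on the poly-A scale (−0.58, −0.92 and −0.38), and the first also under median centring (−0.01). Mbtps1, the first protease to cut SREBPs in the Golgi, had a change of −0.05 at 6 h (adjusted p = 0.641) and fell by 0.89 at 24 h (adjusted p = 2.49e-07) and by 0.31 at 72 h. Erlin2, an endoplasmic reticulum protein needed for sterol-driven degradation, had a change of −0.09 at 6 h and fell by 0.71 and 0.23. Ube2g2, a ubiquitin-conjugating enzyme of that route, rose by 0.30, 0.85 and 0.34, and Sar1b, a GTPase of the vesicles that carry cargo to the Golgi, had a change of 0.09 and rose by 0.53 and 0.70, with negative values on the poly-A scale for Ube2g2 at each time and for Sar1b at 6 and 24 h.

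Of 14 tested genes for uptake, storage and transport of sterol inside the cell, 2 rose and 3 fell at 6 h, 2 rose and 8 fell at 24 h, and 7 rose and 4 fell at 72 h, with medians of −0.06, −0.31 and 0.20, the last turned to −0.45 on the poly-A scale. Lrp1, an endocytic lipoprotein receptor, averaged 9.78 ± 0.0551 in chlorothalonil and 11.4 ± 0.135 in DMSO at 24 h (SD, n = 3 each) and fell at all 3 times, by 0.48, 1.62 and 1.07. Cav1, the caveolae protein, fell by 0.15, 0.91 and 0.26. Lipa, the lysosomal lipase that frees cholesterol from esters, fell by 0.31 and 1.02 and had a change of −0.12 at 72 h (adjusted p = 0.197). Vldlr, another lipoprotein receptor, had a change of −0.10 at 6 h (adjusted p = 0.390), fell by 1.02 at 24 h and rose by 0.87 at 72 h (adjusted p = 1.13e-06). Mylip and Gramd1b lay under the filter, and 6 genes of that list were not analysed here.

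Of 14 genes of the LXR and efflux list 4 were tested, 1 was not analysed here, and Nr1h3, Rxra, Abcg1, Abcg4, Apoe, Pltp, Smpdl3a, Cyp27a1 and Ch25h lay under the filter. Of the 4, 1 fell at 6 h, 2 rose and 1 fell at 24 h, and 1 fell at 72 h, with medians of −0.14, 0.31 and 0.07 that became −0.74, −0.75 and −0.58 on the poly-A scale. Lpcat3, a phospholipid acyltransferase and LXR target, had a change of −0.17 at 6 h (adjusted p = 0.108), fell 4.12-fold at 24 h (−2.04, adjusted p = 5.23e-11) and fell by 0.46 at 72 h. Abca7, a transporter related to Abca1, had changes of −0.10 at 6 h and 0.37 at 72 h, neither called, and rose by 1.26 at 24 h. Nr1h2, the LXR beta receptor, rose by 0.61 at 24 h and had values of −0.12 and −0.01 at 6 and 72 h. Rxrb, a partner receptor of LXR, fell by 0.57 at 6 h and had changes of 0.01 and 0.15 later. On the poly-A scale Nr1h2 stood at −0.45 and Rxrb at −1.05 at 24 h.

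The enzymes of cholesterol synthesis are the textbook targets of the Srebf2 protein. Of 19 tested, 14 fell and 1 rose at 6 h, 17 fell and 1 rose at 24 h, and 17 rose and 0 fell at 72 h. The medians were −0.44, −1.79 and 0.60, and on the poly-A scale the 72 h median was −0.05 with 0 genes called higher and 1 lower. Fell and rose are against DMSO at the same time and do not give the course in treated cells. In DMSO alone, 17 of the 19 were higher and 2 lower at 24 h against 6 h (median 1.83). At 72 h against 24 h in DMSO, 18 were lower and 0 higher (median −3.16). Acat2, which condenses acetyl-CoA in the cytosol, averaged 11.1 ± 0.0390 in chlorothalonil and 13.5 ± 0.136 in DMSO at 24 h (SD, n = 3 each), and it fell by 0.89 and 2.36 and rose by 0.52. Ebp, a sterol isomerase, had a change of −0.09 at 6 h (adjusted p = 0.398), fell by 2.10 and rose by 0.66. Dhcr7, a late sterol reductase, fell by 1.05 and 2.75 and rose by 1.01, and Sc5d, a sterol desaturase, fell by 0.80 and 1.78 and rose by 0.34. At 72 h Acat2 and Sc5d stood at −0.14 and −0.31 on the poly-A scale.

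Of 15 tested fatty acid synthesis genes, 8 fell and 2 rose at 6 h, 14 fell and 1 rose at 24 h, and 2 fell and 5 rose at 72 h, with medians of −0.28, −1.72 and 0.07 (−0.58 at 72 h on the poly-A scale). In DMSO alone, 14 of the 15 were higher and 1 lower at 24 h against 6 h (median 1.45). At 72 h against 24 h in DMSO, 14 were lower and 0 higher (median −1.94). Scd, a desaturase, exceeded log2 4 in DMSO at 24 h alone. At that time it averaged 2.42 in chlorothalonil and 6.62 in DMSO and was therefore at least 6.15-fold lower in treated cells. Scd passed the filter only through that group, so its fall at 24 h, counted above, was fixed by the filter. Fads1, another desaturase, fell by 0.45 and 3.03 and rose by 0.21 at 72 h, or −0.44 on the poly-A scale. Acss2, which makes acetyl-CoA from acetate, had a change of −0.02 at 6 h (adjusted p = 0.887), fell by 3.27 at 24 h and rose by 0.66 at 72 h. Fasn, the fatty acid synthase, fell by 0.90 and 2.53 and had a change of −0.15 at 72 h (adjusted p = 0.109). Acacb lay under the filter. In the cholesterol list 3 genes, and in the SREBP activation list 4, were not analysed here.

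**Figure D4:**
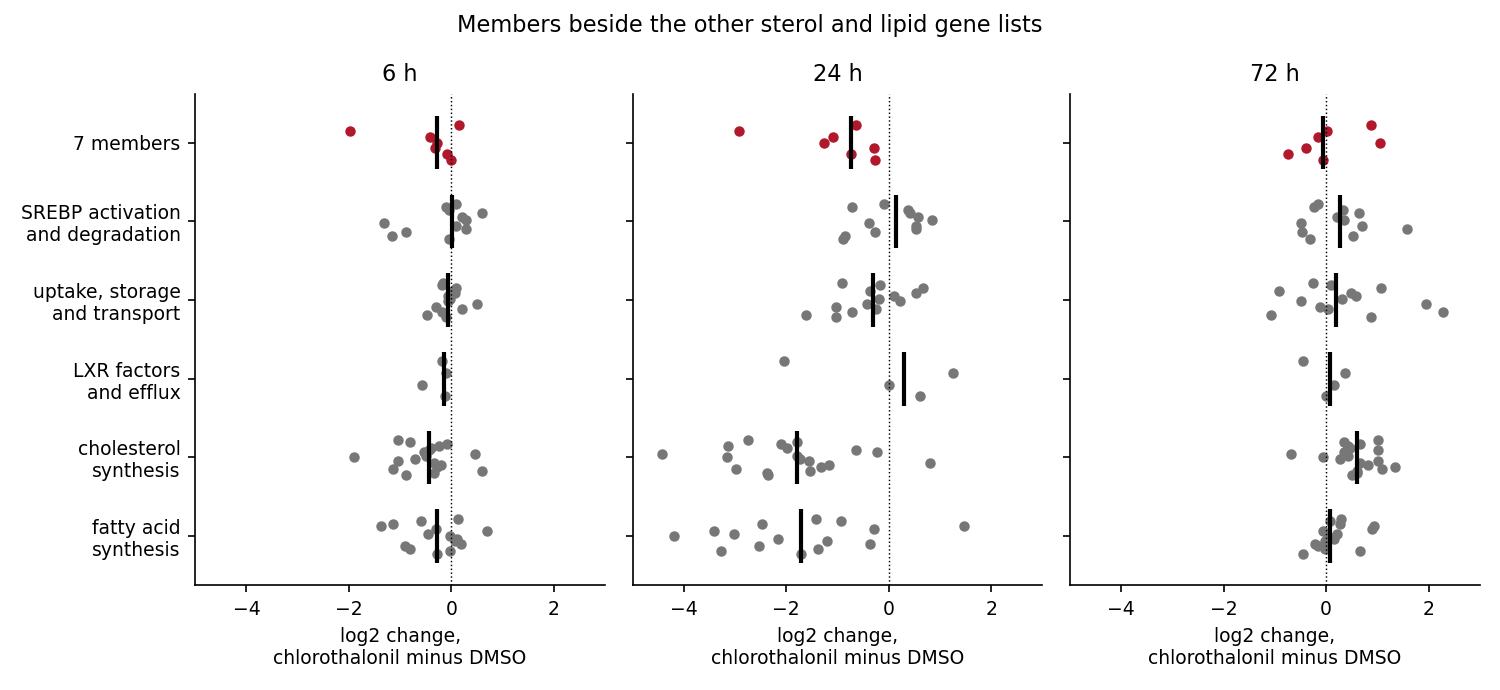
Log2 change, chlorothalonil minus DMSO (horizontal axis), at 6, 24 and 72 h for the 7 genes (top row) and the tested genes of 5 other lists, 1 point per gene, with a bar at each list's median. At 24 h the medians of cholesterol and fatty acid synthesis lie at −1.79 and −1.72, left of the −0.73 of the 7 genes.

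The genes whose values ran most like each of the 7 over the 18 arrays are a description, since the arrays share treatments, times and scaling. Insig1 was followed by Fdps (Pearson r = 0.981), Pcyt2 (0.966) and Mvd (0.963). Insig2 was followed by Esyt2 (0.988), Epm2aip1 (0.985) and Rin2 (0.981), and Stard4 by Eif2ak4 (0.968), Herc2 (0.965) and Clcn6 (0.963). Srebf2 was nearest to Reep3 (0.933), Lrrn4 (0.916) and Tusc3 (0.910), Scap to Nr2f6 (0.915), Ttyh3 (0.909) and Brd3 (0.871), and Abca1 to Cmas (0.916), Pdk3 (0.909) and Cab39l (0.894). Srebf1 had no close companion, with Wdr33 (0.731), Scand1 (0.607) and Lman2 (0.600) at the top. Within the set, Insig2 and Stard4 ran most alike (0.872) and Scap and Abca1 least (−0.264).

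Markers of other cell types moved too. Of 5 leukocyte markers measured, Ptprc, Itgam and Lyz2 never exceeded log2 4, while Cd68, a lysosomal protein of macrophages and other cells, did so on 9 arrays. The log2 of that list's summed level was 9.29 to 9.65 in chlorothalonil and 5.15 to 5.48 in DMSO at 72 h. Of 5 endothelial markers, 4 never exceeded log2 4, and Tek did so on 5 arrays. The summed proximal tubule list lay at 8.60 to 8.95 in chlorothalonil and 7.09 to 7.27 in DMSO at 24 h, and at 6.42 to 6.66 in chlorothalonil and 7.42 to 7.62 in DMSO at 72 h. Its 2 tested genes went opposite ways at 72 h: Ggt1 averaged 5.64 in chlorothalonil and 3.42, at background, in DMSO, whereas Aqp1, a water channel, averaged 2.60, at background, in chlorothalonil and 7.04 in DMSO, the only group where it exceeded log2 4. The summed mesenchymal list lay at 15.27 to 15.34 in chlorothalonil and 15.60 to 15.69 in DMSO at 72 h, where Vim and Acta2 rose by 0.41 and 0.80 while Col3a1, Col1a1 and Col1a2 fell by 3.24, 1.28 and 1.79. The summed epithelial list lay at 14.79 to 14.95 in chlorothalonil and 14.41 to 14.52 in DMSO at 24 h, where Krt8 and Ocln rose by 0.81 and 1.33 while Tjp1 fell by 0.26. The part of these shifts in the changes of the 7 genes was not tested.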

How the data were processed

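Total RNA from 18 cultures was hybridised to 1-colour Affymetrix rat arrays of 31099 probe sets, 1 array per sample, per the labels' protocols. The deposited log2 values were made by the authors with GCRMA, which subtracts background by probe sequence, normalises between arrays and summarises probes, per the submitters' processing notes. The version of GCRMA, and how it was set, is not given in the sources used here. GCRMA draws dim probe sets towards a floor, so changes near log2 4 are compressed, and arrays give no depth: their number limits the precision.

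Gene symbols came from the platform annotation, updated by Entrez ID through RefSeq's GRCr8 table for 20764 probe sets. Of all probe sets 20832 had 1 symbol, 436 had several and 9831 had none. The 12693 with 1 symbol and a log2 value over 4 on at least 3 arrays gave 9149 genes, each read from its brightest probe set over the 18 arrays. A linear model with 6 group means and 12 residual degrees of freedom was fitted with limma 3.58.1 in R 4.3.3 (lmFit and eBayes), and p-values were adjusted by Benjamini-Hochberg over all 9149 genes for each of 7 comparisons, with a threshold of 0.05. Other probe sets were adjusted over all 12693. Changes between times were tested as interactions, and every sign is chlorothalonil minus DMSO or later minus earlier. The fit was tested on simulated data.

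The 7 genes and the lists were chosen with earlier results of these data known, so counts over them are descriptions. All 7 are described at each time. From each other list the 4 tested genes with the smallest p at 24 h are named, and for each of the 7 the 3 genes with the highest Pearson r over 18 arrays. List genes under the filter are named, and those without a probe set are counted. Alternatives were quantile normalisation, median centring, scaling to 12 poly-A control probe sets, no filter or a filter at log2 6, a trend with robust estimation, array weights, other probe sets, the compared groups alone, the replicate number as a block and each array left out. Promoters are RefSeq's, assembly GRCr8.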

Additional observations from a re-analysis of the deposited data

Results flagged for a closer look

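Differences of the treatment effect between times were called by the interaction test, with p adjusted over all genes by limma. From 6 to 24 h the effect differed in 5 of the 7 genes, where 63.0% of all genes differed. From 24 to 72 h it differed in 4 of the 7, where 57.6% did. With 7 genes, both counts lie near the shares of all genes in either direction. The difference from 6 to 24 h was −0.64 for Srebf2 (SE 0.136, adjusted p = 0.000787), −0.98 for Insig1 (SE 0.118, adjusted p = 5.09e-06), −0.67 for Insig2 (SE 0.104, adjusted p = 5.37e-05), −0.93 for Stard4 (SE 0.162, adjusted p = 0.000155) and −0.80 for Abca1 (SE 0.289, adjusted p = 0.0247). The Abca1 value lost its call under quantile normalisation (adjusted p = 0.0662) and median centring (0.0587), without any 1 of 7 arrays (up to 0.0684) and on the poly-A scale without DMSO replicate 1 at 24 h (0.0523). The Srebf2 and Insig2 values lost theirs on the poly-A scale (adjusted p = 0.0930 and 0.0821), also without that array (0.0964 and 0.0751).

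The difference from 24 to 72 h was 2.31 for Insig1 (adjusted p = 1.29e-09), 0.92 for Insig2 (adjusted p = 3.05e-06), 2.94 for Stard4 (adjusted p = 2.48e-09) and 1.53 for Abca1 (adjusted p = 0.000367). The second probe sets gave a first step of 0.52 for Insig2 and −0.10 for Stard4 and a second step of 0.87 for Insig2 and 3.27 for Stard4. With 3 arrays per group, single arrays were not tested as outliers.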

How the results depend on the processing

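Over all alternatives on the brightest probe sets, 1346 of 1414 results for the 7 genes kept direction and call, 52 lost and 15 gained a call, and 1 reversed. A reversal was counted only where the value was called in at least 1 of the settings compared, and 34 values changed sign while called in neither. Of 33 called results, 0 reversed. The filters, the replicate block, the trend and the fit of the compared groups alone leave the log2 change itself as it was. So does leaving out an array of a group that a comparison does not use. No direction could turn in those settings, so the counts of results kept and reversed are partly fixed by the design. Scaling to the poly-A controls had the widest effect: 3 of the 7 genes were then called for the difference of effects from 6 to 24 h and 3 for DMSO at 72 h against 24 h, each against 5 as deposited. Without DMSO replicate 1 at 24 h the same scaling gave 2 and 3, and a fit of only the groups compared gave 3 for the DMSO contrast. Over all genes, poly-A scaling gave 3591 calls at 6 h (232 higher, 3359 lower) against 5451 as deposited (2544 higher, 2907 lower), 6394 at 24 h (256 higher, 6138 lower) against 6418 (3575 higher, 2843 lower) and 3561 at 72 h (313 higher, 3248 lower) against 5881 (3408 higher, 2473 lower). For the contrasts of times it gave 1446, 1426, 2968 and 1339 calls against 5761, 5274, 6673 and 5550. Without DMSO replicate 1 at 24 h, poly-A scaling gave 6003, 5463 and 5810 calls at 6, 24 and 72 h (5651, 4764 and 5284 lower) and 2590, 2155, 4683 and 3069 for the contrasts of times. Median centring turned DMSO at 24 h against 6 h to 2363 higher and 4445 lower, against 3010 and 3663 as deposited.

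Poly-A scaling adds the same shift to every gene of a comparison, and the reversed values are the deposited ones plus that shift. They were −0.30, −0.21 and −0.31 for Ube2g2 at 6, 24 and 72 h, −0.53 for Sar1b, −0.45 for Nr1h2 and −1.05 for Rxrb at 24 h, and −0.14 for Acat2, −0.31 for Sc5d and −0.44 for Fads1 at 72 h. Without DMSO replicate 1 at 24 h they were −0.30 and −0.31 for Ube2g2 at 6 and 72 h, −0.51 and −0.16 for Sar1b at 6 and 24 h, −0.56 and −0.50 for Rxrb at 24 and 72 h, and −0.63 for Stard4, −0.14 for Acat2, −0.31 for Sc5d and −0.44 for Fads1 at 72 h. The −0.62 for Scd at 72 h is this shift on a gene at background in both groups. Other probe sets reversed Abca1 at 72 h (−0.34) and in DMSO at 72 h against 24 h (0.48), and Insig2 at 72 h (0.52) and in the first difference of effects (0.52).

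Leaving out each array gave 3 to 4 called genes at 6 h, 4 to 6 at 24 h, 4 to 5 at 72 h, 4 to 5 and 4 to 4 for the differences of effects, and 5 to 6 and 3 to 5 for the DMSO contrasts. A filter at log2 6 dropped Abca1. Same-numbered arrays deviated together at −0.044 to 0.305, with 3 of 9 pairs over 0.1 and 4 of 9 treated arrays best matched by their own number, so the numbers were not taken as pairs. With the replicate block the called genes were 4, 6 and 5 at 6, 24 and 72 h, 5 and 4 for the differences of effects and 5 and 4 for the DMSO contrasts. With 3 arrays per group and Abca1 near background, small differences in it are the least certain.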

Other observations

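The 2 Stard4 probe sets parted company within single arrays, where the scaling of an array cancels. The brightest minus the second averaged −1.005 in chlorothalonil and −0.52 in DMSO at 6 h, −0.20 in chlorothalonil and 1.11 in DMSO at 24 h, and 1.06 in chlorothalonil and 2.70 in DMSO at 72 h. The mean gap between treatments was −1.15, with an exact two-sided permutation p of 0.00025 within times, the smallest that 8000 permutations give, and 0.00075 adjusted over 3 genes. The same gap was −0.31 for Insig2 (exact permutation p = 0.0685, adjusted 0.103) and −0.07 for Srebf1 (exact permutation p = 0.597). For Insig2 the difference averaged −0.03 in chlorothalonil and −0.50 in DMSO at 6 h. It averaged −0.69 in chlorothalonil and 0.03 in DMSO at 24 h, and 0.68 in chlorothalonil and 1.36 in DMSO at 72 h. The groups did not overlap at any time, and the gap had opposite signs at 6 h and later. The mean over times therefore cannot show whether the 2 Insig2 probe sets parted at single times. For Srebf1 the difference averaged 2.34 in chlorothalonil and 2.53 in DMSO at 6 h. It averaged 2.36 in chlorothalonil and 2.71 in DMSO at 24 h, without overlap, and 3.02 in chlorothalonil and 2.69 in DMSO at 72 h. This gap changed sign at 72 h, so the same limit holds for the Srebf1 mean. The gap of Abca1 was not tested, since its second probe set lay at or below log2 4 on every array of 3 groups. The comparison was chosen after the values were seen.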
